A study of Caenorhabditis elegans with 2 samples.

Results

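The regions described here were peaks of RPC-1, the biggest of the subunits that make up RNA polymerase III (Pol III), that lay in the bodies of protein-coding genes. A peak was a member where it overlapped the span of a RefSeq protein-coding gene by at least 1 bp, and touched neither the 500 bp on each side of any protein-coding transcript start nor any non-coding gene or pseudogene widened by 100 bp. Of the 2123 peaks that passed the authors' reproducibility step, 408 met this rule, and peaks with the same interval were joined into 369 regions of the 1857 in all. The measurements came from chromatin immunoprecipitation and sequencing (ChIP-seq) of whole, mixed-sex young adult Caenorhabditis elegans of strain YL517, which carries a transgene for RPC-1 with GFP-FLAG at its C terminus. Replicates 1 and 2 were the 2 libraries of 1 group, each from its own pooled biosample, and nothing was compared between conditions. The promoter of the transgene and the age in hours or days were not given in the labels, and 1 free-text label writes PRC-1 where the antibody and strain labels write rpc-1. Positions are on ce11, the assembly that RefSeq calls WBcel235.

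Pol III makes tRNAs, 5S rRNA, U6 snRNA and a few other short RNAs. At tRNA genes the promoter lies inside the transcribed sequence: the A box and the B box are bound by the factor TFIIIC, which brings in TFIIIB and then the polymerase, and a run of T residues ends transcription. In many genomes sequences derived from tRNA genes have spread as pseudogenes and as short interspersed elements, and some of these keep the internal boxes.

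The sequences below illustrate the tRNA-like units, and 7 of the 10 strongest gene-body regions were alike to a tRNA pseudogene or gene. The first lines show the members lips-10 (chrII:8441604-8441717, minus strand) and srt-52 (chrV:53463-53576, plus strand), the latter followed by the annotated tRNA pseudogene to which it was most alike, Y94H6A.t1 (chrIV:2740201-2740314, plus strand). T02C5.1 (chrX:2696711-2696824, minus strand) is likewise followed by its best match, the pseudogene F53B1.t1 (chrX:2125733-2125846, minus strand). The members nhr-236 (chrIV:2327418-2327531, minus strand), Y73F8A.26 (chrIV:15476467-15476580, minus strand) and gfrl-1 (chrIV:2657380-2657493, plus strand) are further strong regions, and pmt-2 (chrV:4632955-4633068, minus strand) stands for a family with no tRNA match. The last line is zip-7 (chrIV:16503695-16503808, minus strand), the strongest region, which held no B box. All members shown had their summit in an intron. Each line runs 5′ to 3′ along the box, from RefSeq's WBcel235 genome. Capitals mark, in order, an A box where one was found, the B box (in zip-7, a GATC form of it), and the first TTTT after it within the stretch.
lips-10: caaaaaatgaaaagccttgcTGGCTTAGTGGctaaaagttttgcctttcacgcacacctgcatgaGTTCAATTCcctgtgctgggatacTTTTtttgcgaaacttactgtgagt
srt-52: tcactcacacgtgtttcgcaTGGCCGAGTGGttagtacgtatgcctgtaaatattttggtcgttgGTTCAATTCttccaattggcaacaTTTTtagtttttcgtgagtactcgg
Y94H6A.t1: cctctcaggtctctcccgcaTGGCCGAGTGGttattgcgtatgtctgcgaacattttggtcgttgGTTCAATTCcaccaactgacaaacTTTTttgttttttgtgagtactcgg
T02C5.1: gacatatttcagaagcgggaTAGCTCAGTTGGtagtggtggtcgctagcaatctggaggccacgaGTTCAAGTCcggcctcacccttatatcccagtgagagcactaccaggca
F53B1.t1: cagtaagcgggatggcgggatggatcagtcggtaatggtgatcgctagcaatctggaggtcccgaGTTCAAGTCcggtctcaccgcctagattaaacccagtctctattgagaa
nhr-236: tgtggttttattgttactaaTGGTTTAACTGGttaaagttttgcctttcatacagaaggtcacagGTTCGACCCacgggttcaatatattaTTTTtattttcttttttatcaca
Y73F8A.26: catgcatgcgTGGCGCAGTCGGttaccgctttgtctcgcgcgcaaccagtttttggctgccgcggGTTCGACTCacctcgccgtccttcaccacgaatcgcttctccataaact
gfrl-1: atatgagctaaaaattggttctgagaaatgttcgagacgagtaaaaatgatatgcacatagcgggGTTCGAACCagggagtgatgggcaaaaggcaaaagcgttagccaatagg
pmt-2: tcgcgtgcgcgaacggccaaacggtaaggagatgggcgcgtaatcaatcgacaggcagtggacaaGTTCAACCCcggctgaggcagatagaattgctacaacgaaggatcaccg
zip-7: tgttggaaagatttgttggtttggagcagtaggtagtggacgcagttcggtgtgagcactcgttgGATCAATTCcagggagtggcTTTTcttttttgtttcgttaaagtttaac
In lips-10, srt-52, nhr-236 and Y94H6A.t1 the lines hold all 3 elements in order. In T02C5.1 and Y73F8A.26 they hold both boxes and no TTTT in the bases shown, and in F53B1.t1, gfrl-1 and pmt-2 only the B box letters matched on the strand shown. The window of gfrl-1 held 3 B boxes on both strands, and its tRNA-like stretch lay on the minus strand, opposite to the line shown.

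The signal value is the authors' score for a peak, with no fixed range, and was compared within 1 list at a time. The 369 regions ran from 60.4 to 6946, with a median of 192 and quartiles of 107 and 395. The median over all 1857 regions of the list was 377, so gene-body regions were weaker than the list as a whole, though 22 of them exceeded 1000 and 80 lay under 100. Their median width was 442 bp.

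The strongest region lay in an intron of zip-7, which encodes a bZIP transcription factor, at chrIV:16503346-16504227, with a signal value of 6946. Its values were 4121 in the list of replicate 1 and 2837 in that of replicate 2. An intron of lips-10, a lipase-related gene, came next at 6082, with 3546 and 2548 in replicates 1 and 2. An intron of srt-52, a chemoreceptor gene of the srt family, followed at 5136, with 2991 and 2154. By signal value zip-7 ranked 15 in replicate 1 and 14 in replicate 2, lips-10 ranked 32 and 27, and srt-52 ranked 84 and 62, so all 3 stood near the top of both lists.

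The region at F09E5.7 had a signal value of 4355 and that in gfrl-1, a gene for a protein related to the receptors of glial-derived neurotrophic factor, 3492. At mrpl-40, a mitochondrial ribosomal protein gene, it was 3023. The region in nhr-236, a nuclear hormone receptor gene, reached 2449, that at Y17D7C.6 2084, that in Y73F8A.26 1947, and that in T02C5.1 1811. Of these 10, 9 held a B box, 7 were alike to a tRNA pseudogene or gene, and 8 lay in a chromosome arm, taken here as the outermost 33.3% at each end. At F09E5.7, mrpl-40 and Y17D7C.6 the peak reached into the gene while its summit stood outside it.

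**Figure D1:**
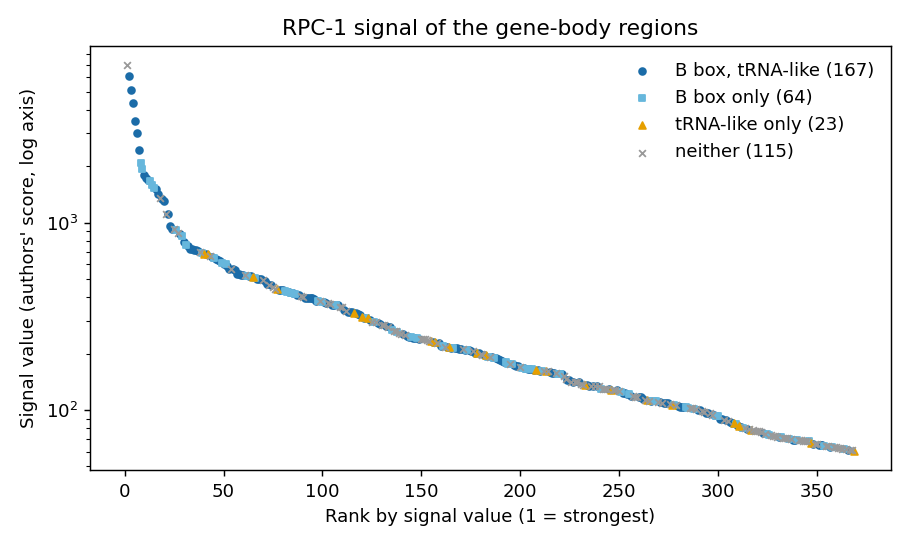
Signal value (log axis) of the 369 gene-body regions in order of rank, 1 point a region. The marker shows whether the 100 bp on each side of the summit held a B box, were alike to a tRNA gene or tRNA pseudogene, both, or neither; the points run from 6946 down to 60.4, and neither mark was found in 115 regions, which include the strongest.

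The regions recurred in both replicates. A peak overlapped 368 of the 369 in the list of replicate 1 and 367 in that of replicate 2, and 366 had a peak in both. These lists were long, with 26455 and 27629 peaks, so overlap alone says little. Among the strongest 2123 peaks of each, 323 of the 369 regions (87.5%) were found in both replicates, against 90.4% of all regions of the optimal list. Spearman's rho between the replicate values was 0.942 over the 366 regions, which share the 2 libraries and were chosen by a procedure that used both.

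**Figure D2:**
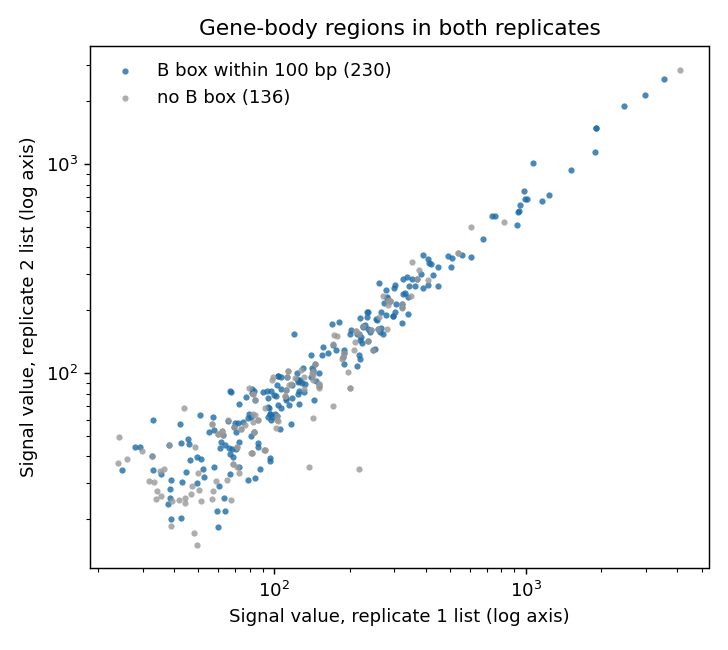
Signal value of each gene-body region in the list of replicate 1 against that in the list of replicate 2 (both log axes), coloured by whether a B box lay within 100 bp of the summit. The points follow 1 band, with Spearman's rho of 0.942, and spread most at low values.

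A B box was searched as GTTCGANNC or GTTCAANNC on either strand, wholly within 100 bp of the summit. It was found in 231 of the 369 regions, or 62.6% (Wilson 95% interval 57.6 to 67.4). The same letters were found in 4.48% of the 215363 windows of 201 bp tiled over all gene-body sequence open to the rule. A match to letters is a description and not a mapped binding site, intervals here cover counting error over regions only, and related copies are not independent. The share depended on the letters and the distance: it was 35.8% with GTTCGANNC alone and 36.9% within 50 bp. Lists of single replicates cut to the same 2123 peaks gave 63.1% without replicate 1 and 62.1% without replicate 2.

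The box share was lower at lower signal. It was 79.3% in the strongest 92 regions, 62.0% in each of the next groups of 92, and 47.3% in the weakest 93. Below the optimal list, gene-body peaks of the authors' pooled list held the box in 16.3% at ranks 2124 to 4246, in 4.83% at ranks 4247 to 8492, and in 3.94% from there to rank 24907, which is close to the 4.48% of the tiled windows. Regions with a box had a median signal value of 217 and those without 137. The order was the same in each replicate list, with 130 against 96.1 in replicate 1 and 95.5 against 63.4 in replicate 2.

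Regions of the list at no annotated gene held the box in 200 of 321, or 62.3%. The difference from gene-body regions was 0.296 percentage points, and it missed the threshold of 0.05 (two-sided Fisher's exact test over regions, Benjamini-Hochberg adjusted p = 0.937). Regions at protein-coding promoters held it in 140 of 253, or 55.3%, which was 7.27 points lower than in gene bodies (adjusted p = 0.161 by the same exact test). By the same exact test this second comparison passed the threshold when overlapping intervals were merged (12.45 points, adjusted p = 0.00494) and when the box could lie within 200 bp (11.41 points, adjusted p = 0.00516). It also passed when regions beside a stronger summit were left out of both groups, a setting added after the data were seen (14.96 points, adjusted p = 0.00116 by the exact test). It turned in direction in the stronger 50% of the list by signal (−4.2 points, adjusted p = 0.565 by the exact test), where the difference from regions at no gene was 13.44 points (adjusted p = 0.069 by the exact test). These tests count each region as independent, though many are related copies and some overlap. Their p-values therefore describe the regions of this list only and do not measure variation between libraries.

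**Figure D3:**
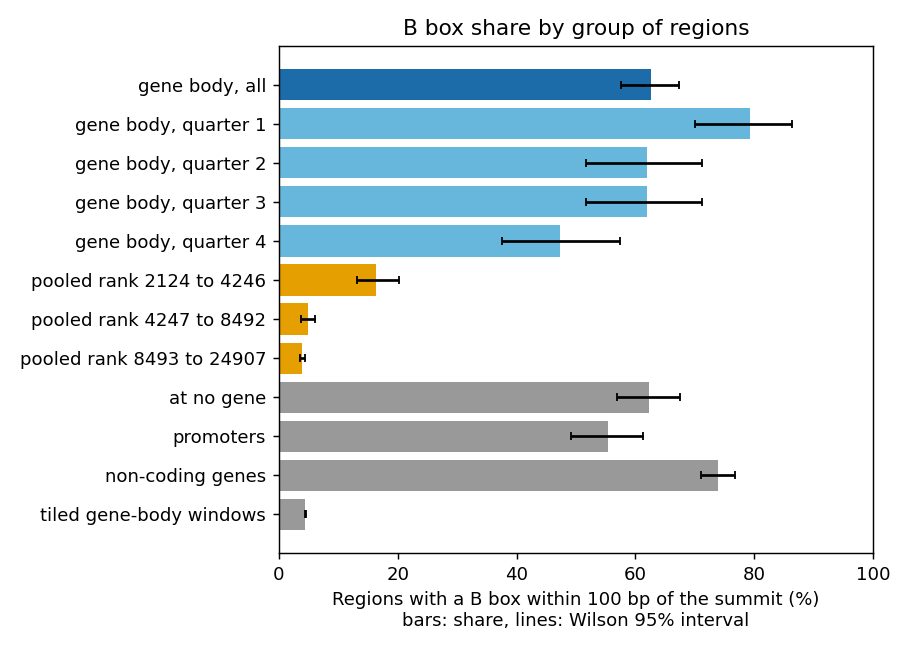
Share of regions with a B box within 100 bp of the summit (bars, in percent) with Wilson 95% intervals (lines), for gene-body regions as a whole and in 4 groups by signal value, for gene-body peaks of lower rank in the pooled list, for the other classes of the optimal list, and for windows tiled over gene-body sequence. The share is 62.6% over all gene-body regions and 3.94% at the lowest ranks of the pooled list.

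The box had a common place and common partners. Its centre lay downstream of the summit, along its own direction, in 184 of the 231 regions (79.7%), with a median distance of 40 bp and quartiles at 17.5 and 52. At the tRNA genes with a summit near the box the median was 43 bp, with quartiles of 31.5 and 48. An A box, in its 12-letter form starting 20 to 90 bp upstream on the same strand, was found in 129 of the 231 box-holding regions (55.8%, interval 49.4 to 62.1). It was found beside 2.61% of the other 10571 B boxes in gene-body sequence and beside 22.5% of the B boxes of tRNA genes, so the 12 letters miss most tRNA genes. A looser form, with 1 to 4 bases before its final GG and chosen after the data were seen, was found in 172 regions (74.5%), beside 4.25% of the other boxes and in 89.8% of tRNA genes. From the start of this A box to the start of the B box the median was 45 bp, with quartiles of 44 and 45.

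The terminator was found less often than at tRNA genes, and about as often as beside other boxes. TTTT followed within 100 bp in 158 of the 231 regions (68.4%), in 65.9% of the other boxes and in 99.5% of tRNA genes. The looser A box, the B box and TTTT stood together in 114 regions, or 49.4%, against 3.48% of the other boxes and 89.3% of tRNA genes. That contrast came with the A box and not with TTTT. Among B boxes with the looser A box, 26.98% of the 504 with TTTT lay in a gene-body region, and 42.55% of the 141 without it. Median signal was 241 in the 172 regions with both boxes and 180 in the 59 with the B box alone.

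**Figure D4:**
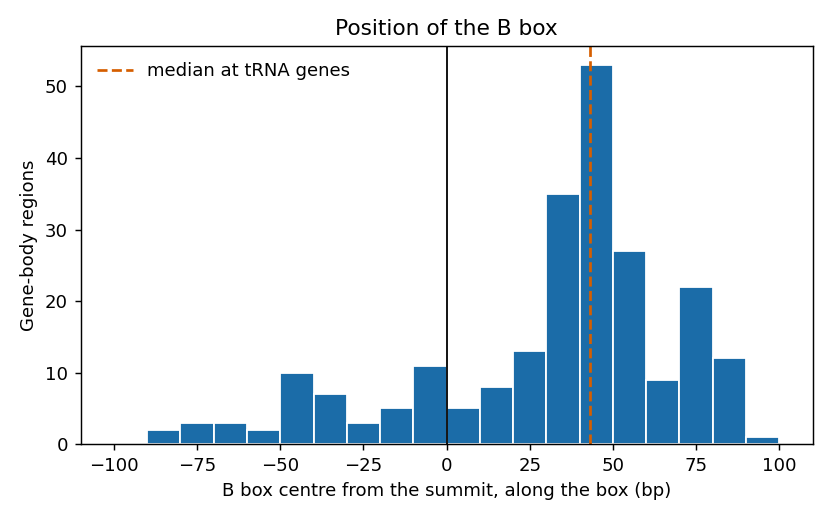
Number of gene-body regions by the distance from the summit to the centre of the nearest B box, in bp along the direction of the box, in bins of 10 bp. Most boxes lie downstream of the summit, at a median of 40 bp, near the median of 43 bp at tRNA genes (dashed line).

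The likeness to tRNA genes went beyond the boxes. The 201 bp at the summit matched an annotated tRNA gene or tRNA pseudogene (blastn, E at most 1e-05) in 190 of the 369 regions, or 51.5% (interval 46.4 to 56.6), against 0.226% of the tiled windows. In 186 of the 190 the best match was a pseudogene and not a tRNA gene. The matches had a median identity of 86.2% over a median of 66 bp, and the highest identity was 96.2%. A B box was found in 167 of these 190 regions (87.9%) and in 64 of the other 179 (35.8%), and of the 167 it lay on the strand of the matched stretch in 150. Median signal was 224 in the tRNA-like regions and 152 in the others.

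The best matches were 62 different genes and pseudogenes, and 36 of these were best for a single region. The pseudogene F53B1.t1 was best for 59 regions, 55 of them with a B box and 39 of them on X. Their signal values had a median of 239 and were highest in T02C5.1 at 1811. F53B1.t1 itself had an optimal peak of 141. Y94H6A.t1 was best for 15 regions led by srt-52, with a median of 334, and its own peak reached 89.9. C54E10.t2 was best for 14 regions, with a median of 108, and had no optimal peak.

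Most gene-body sequence with a B box was not in any member. Of the 10847 B boxes in that sequence, 276 lay in a gene-body region, or 2.54%. Among the 10068 boxes with neither the looser A box nor a tRNA-like surround, 41 were in a region (0.407%, interval 0.300 to 0.552). With the A box alone the share was 14.4% of 292 boxes, with the tRNA-like surround alone 29.1% of 134, and with both 43.6% of 353 (interval 38.6 to 48.8). Of those 353, 283 (80.2%) had at least a peak in the pooled list, which also holds weak peaks, against 10.9% of the boxes with neither. Boxes with the A box were in a region in 194 of 541 cases in introns (35.9%) and in 2 of 104 in exons (1.92%). On the strand of the host gene the share was 28.9% and on the opposite strand 31.96%.

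**Figure D5:**
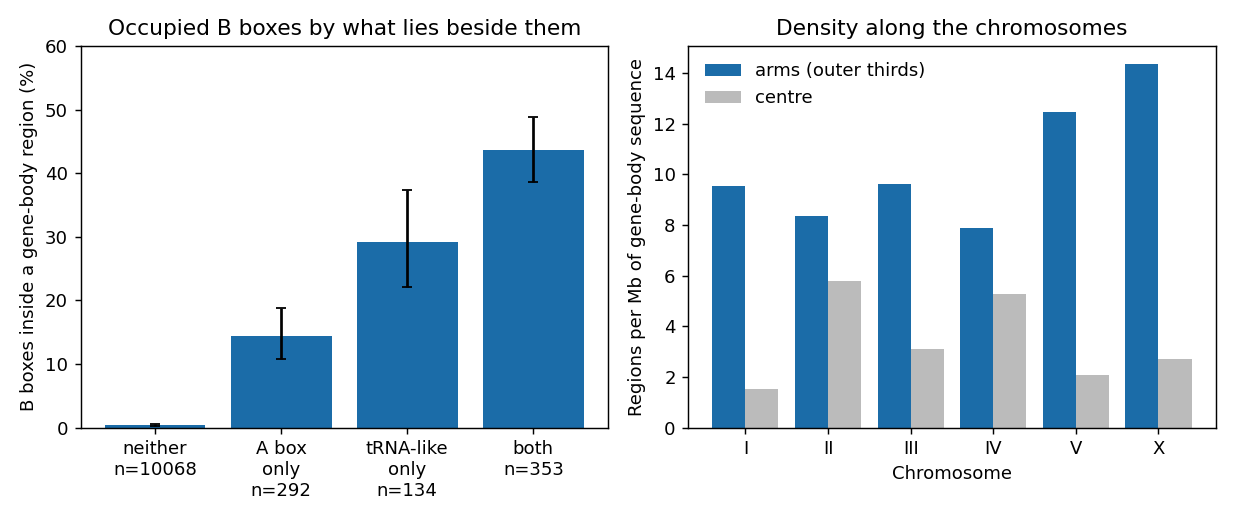
Left, share of B boxes in gene-body sequence that lay in a gene-body region (bars, in percent, with Wilson 95% intervals), by whether the looser A box, a tRNA-like surround, both or neither lay beside them; it goes from 0.407% with neither to 43.6% with both. Right, gene-body regions per Mb of gene-body sequence in the arms and centre of each chromosome, with the arm bar higher on all 6.

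Most members were alike to at least 1 other member. At E of at most 1e-05, 304 of the 369 fell into 12 families and 65 had no relative among the members, and 1 family linked 251 regions. Of these 251, 166 were tRNA-like. Families were built by linking matches, so the regions in a family need not all match each other. Overlapping intervals could count as relatives too. How often tiled windows match each other was not computed, so the count of 304 has no background beside it. At the stricter E of 1e-15 the largest family held 81 regions, 64 of them tRNA-like, and was led by T02C5.1. The next largest, of 24 regions led by best-26, held no tRNA-like member, and 11 had a B box. All 24 matched the pseudogene sri-23, and a median of 20.88% of the 32-base words in their windows occurred once in the genome. Whether matches to such pseudogenes, here and below, were to repeats lying within their annotated spans was not tested. A family of 14 held no tRNA-like member, yet 11 had a B box. It was led by the region at F57A10.2 with a signal value of 650, and its median was 249. In it 12 regions matched K02E11.15, an annotated non-coding RNA gene that had an optimal peak of 916. A family of 16 led by F20B6.9 held neither a B box nor a tRNA-like stretch, and 14 of its regions matched the pseudogene R06B10.2. These 16 are not separate sites in as many genes. They lay in F20B6.9 (5 regions, some overlapping), F59F5.3 (4), spr-5 (3), imb-2 (3) and daf-42 (1). A median of 20.3% of the 32-base words in their windows occurred once in the genome. The region at Y66D12A.1 led a family of 3 with a signal value of 854, and that in T25G12.3 a family of 5 with 432. Likeness in these families was thus not to tRNA sequences alone. A non-coding gene or pseudogene of another kind was matched by 270 of the 369 regions (73.2%), many of them tRNA-like too. The share of the tiled windows with such a match was not computed, so this count has no background beside it.

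Many of these windows held repeated sequence, in which reads from like copies are hard to place. Its part in the signal values was not tested. Soft-masked bases made up 46.7% of the summit windows on average and 34.6% of gene-body sequence. In 139 regions every 32-base word of the window occurred once in the genome, and in 104 fewer than 50% of the words did. Regions with a B box had a median of 95.3% unique words and those without 57.6%. Copies were counted as genome matches of at least 80% identity over at least 50% of the 201 bp window, including the window itself. A window of a single copy could thus still be related to others, as at T02C5.1, which led the family of 81. Among the 97 regions whose window had a single copy in the genome by this measure, 66.0% held a B box and 55.7% were tRNA-like. With 2 to 9 copies the shares were 69.9% and 66.0% of 103 regions. With 10 or more copies, the shares were 56.2% and 40.2% of 169 regions.

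Neither a B box nor a tRNA-like stretch was found in 115 regions. A stronger optimal summit lay within 1 kb of 58 of these, and of 12 of the 167 regions with both marks. The median signal of the 115 was 134, and 60 of them had fewer than 50% unique words. In the 57 with no stronger summit within 1 kb, 39 summits were intronic and 10 lay in untranslated exons, and 24 windows had 10 or more copies. The part of a stronger neighbour or of repeated sequence in these regions was not tested. The window of zip-7, the strongest of them, had a single copy by the measure above and no stronger summit near. It did match the pseudogene Y71G12B.28 at E of at most 1e-05, and whether the match was to a repeat within that span was not tested. The zip-7 window held the letters GATCAANNC, which were looked for after its sequence was seen. GATCGANNC or GATCAANNC was found in 10 of the 138 regions without a B box (7.25%) and in 4.11% of the tiled windows without one, so the share in the members was near the background. The strongest region of the same kind with many copies was at W05F2.3, at 1364, with 184 copies. In srh-301, a chemoreceptor gene, a region of 1109 also held neither mark.

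Summits lay mostly in introns. They did so in 312 of 369 regions, or 84.6% (interval 80.5 to 87.9), while introns made up 54.8% of the gene-body bases open to the rule. Coding exons held 3 summits (0.813%) and 39.2% of these bases, and exons of untranslated sequence held 18 (4.88%) and 5.93%. The other 36 summits (9.76%) stood outside any protein-coding gene, with only the edge of the peak inside. Of the 333 regions with the summit in a gene, 93.7% had it in an intron. A B box was found in 64.7% of the intronic regions, in 5 of the 18 in untranslated exons, and in none of the 3 in coding exons. In gene-body peaks of the pooled list at ranks 2124 to 4246, 36.6% of the summits were intronic.

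The introns that held the regions were long for the bases open to the rule, and the host genes only slightly so. The median intron with a summit was 1458 bp, against 966 bp for the intron at the median intronic base open to the rule. The 228 host genes had a median length of 5922 bp, against 2006 bp for all protein-coding genes. The gene at the median base open to the rule was 5439 bp long. Summits stood at a median of 56.0% of the way along the host, with quartiles of 35.7% and 77.2%, and a median of 2108 bp from the nearest transcript start.

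Hosts were counted over the 333 regions with their summit in a gene, which leaves out such genes as F09E5.7 and mrpl-40. A single region was found in 158 of the 228 hosts, 2 in 48 and 3 or more in 22. The most, 6, of which 2 overlapped, lay in kcnl-1, a gene of 40743 bp for a calcium-activated potassium channel of the KCNN type. Their signal values ran from 77.9 to 1340, and 3 held a B box. The tyramine-gated chloride channel gene lgc-55 held 5, from 79.5 to 363, and 4 had a box. The neuropeptide receptor gene npr-20 and F20B6.9 also held 5 each, up to 259 and 279, but in both genes some of the regions overlapped and shared their replicate peaks. In frl-1 there were 4, from 166 to 748, all with a B box.

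Lists of gene families, chosen by symbol, supplied hosts in shares that can be set beside their shares of the bases open to the rule. Regions with the summit outside the gene are again left out. Among these were 1 at nhr-48 with a signal value of 564.8 and that at rps-13, at 80.05. Chemoreceptor genes made up 3.44% of those bases and 6 of the 228 hosts (2.63%), led by srt-52, srd-66 with a signal value of 1681, and srh-301. Nuclear hormone receptor genes, with 1.42% of the bases, supplied 9 hosts (3.95%), led by nhr-236, nhr-230 with a signal value of 558 and nhr-48 at 489. The ion channel list, with 0.841% of the bases and 1.32% of the hosts, supplied lgc-55, lgc-31 at 441 and kvs-2 at 97.9. It was made from a few symbol prefixes and does not hold kcnl-1 or the channel genes acc-4, a host at 219, and trp-1, at 111, which were noted after their values were seen. F-box genes, with 0.799% of the bases and 1.32% of the hosts, supplied fbxa-66 at 207, fbxa-185 at 92.5 and fbxa-103 at 82.8. C-type lectin genes, with 0.750% and 0.877%, supplied clec-260 at 338 and clec-114 at 109, and MATH or BTB genes, with 0.260% and 0.877%, supplied bath-21 at 157 and bath-29 at 102. These shares of hosts rest on 2 to 9 genes a list. The unc genes, with 1.77% of the bases and 0.439% of the hosts, supplied only the gap junction gene unc-7, with 3 regions, the highest at 395. TWK potassium channel genes, with 0.439% of both, supplied only twk-46, with 1 region at 228. Ribosomal protein genes, with 0.0277% and 0.439%, supplied only rpl-3, with 1 region at 118 in an untranslated exon. Collagen, cytochrome P450 and UDP-glucuronosyltransferase genes supplied none of the 228 hosts, with 0.292%, 0.298% and 0.294% of the bases, and neither did histone genes, with 0.00326%.

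The regions lay toward the chromosome ends. The arms, the outermost 33.3% of a chromosome at each end, held 319 of 369, or 86.4% (interval 82.6 to 89.6), and 66.9% of the bases open to the rule, which gave 10.5 regions per Mb there and 3.31 in the centres. The arm value was the higher on all 6 chromosomes, from 7.90 against 5.27 on IV to 14.3 against 2.72 on X. B boxes with the looser A box were themselves placed this way, with 87.1% of them in the arms, against 64.9% of all B boxes in gene-body sequence. Of these A box pairs, 31.9% in the arms and 20.5% in the centres were in a region. In the arms 57.1% of the regions were tRNA-like, and in the centres 8 of 50.

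By chromosome, the density was highest on X, with 77 regions (20.9%, interval 17.0 to 25.3) or 10.3 per Mb, against 16.3% of the bases. It was 9.04 per Mb on V, 7.61 on III, 7.51 on II, 6.96 on IV and 6.94 on I. The B box share was lowest on II, at 44.2% of 52 regions, and highest on V, at 70.9% of 79. The strongest regions were T02C5.1 on X, srt-52 on V, mrpl-40 on III, lips-10 on II, zip-7 on IV and W05F2.3 on I.

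The box stood on either strand of the host gene. Among 191 regions with boxes on a single strand and hosts on a single strand, 90 (47.1%, interval 40.2 to 54.2) had the box on the strand of the host. Over all B boxes in gene-body sequence the share was 54.0%, just inside that interval. It lay above the interval without replicate 2 (45.11%, 38.1 to 52.3) and in the stronger 50% of the list (40%, 29.0 to 52.1). Median signal was 208 with the box on the host strand and 214 with it on the other. In hosts on a single strand, the tRNA-like stretch lay on the host strand in 85 of 167 regions (50.9%).

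The distance from each summit to the nearest annotated Pol III gene was also measured. Of the 369 summits 3 (0.813%) were within 1 kb of any of the 658 genes, none within 500 bp and 13 within 2000 bp, and the median distance was 102347 bp. The rule itself keeps members off these genes and the 100 bp around them. The share of the bases open to the rule at these distances was not computed. Whether the members lay nearer or farther than that sequence therefore cannot be said.

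The tagged gene rpc-1 held no peak in the optimal or the pooled list. The gene unc-119, looked at only as a common rescue marker, held none in the optimal list and 2 in the pooled list, the higher at 14.9. At the 500 bp limit of the rule, the members nearest to a transcript start were those in sru-24 (502 bp, signal value 102) and K09E9.1 (508 bp, 87.1). Just outside it were K09A9.6 (499 bp, 71.3) and Y40C7B.4 (492 bp, 203). The lowest member lay in nssp-90 at 60.4, and the highest gene-body peak of the pooled list below the optimal list in C04E7.3 at 59.9.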

How the data were processed

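RPC-1 ChIP-seq was taken from 2 libraries of 1 group, as peak lists on ce11. Each replicate list and the pooled list were made by the authors from alignments, per the deposited file descriptions, and the optimal list came from these through the irreproducible discovery rate, which rates how well peak ranks recur. The signal value in the deposited lists is a score of the authors' caller with no fixed range. The deposited −log10 q-value column of the optimal list held 1 shared value and was not used. The aligner, the caller, the threshold and the read depth are not given in the sources used, so the depth behind each value is unknown. Control libraries were not analysed here.

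The gene annotation was that of RefSeq for WBcel235. Where a region had several summits, the one of highest signal value was used. Shares carry Wilson 95% intervals. Background windows were all 201 bp tiles of protein-coding spans outside promoter windows and widened non-coding genes. Likeness was searched with blastn 2.17.0 at E of at most 1e-05 with no low-complexity filter. Fisher's exact tests used scipy 1.17.1. The search and overlap functions were tested on simulated data. The named regions were the 10 strongest, the 5 strongest with both boxes, the strongest of each chromosome and of the 5 largest families, the hosts with most regions, up to 3 hosts of each gene list, those at the limits of the rule, rpc-1 and unc-119. Others named, such as the families at E of 1e-15, were chosen after their values were seen. The members and lists were chosen with earlier results of these data known. The labels give separate biosamples and do not say how they were grown.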

Additional observations from a re-analysis of the deposited data

How the results depend on the processing

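With the rule applied to the equally many strongest peaks of a single replicate, the region count was 359 to 360, the B box share 62.12 to 63.06%, the host-strand share 45.11 to 47.37%, the intron share 85.52 to 86.39%, the share in the arms 86.11 to 86.91%, the share on X 20.83 to 23.12%, and that near a Pol III gene 0.5571 to 0.8333%. The difference in box share from regions at no gene was −0.2581 to 1.466 points, changing sign without replicate 1, and from promoter regions 3.045 to 7.587 points. The tRNA-like share was 51.25 to 53.33%. The median signal was not recomputed there, since scales differ between lists.

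The stronger 50% of the list by signal left 109 regions by construction, with a median of 564.8, a box share of 78.9%, a host-strand share of 40%, 82.57% in the arms, 63.3% tRNA-like, and a box difference from promoter regions of −4.2 points (Fisher's exact test, adjusted p = 0.565) and from regions at no gene of 13.44 points (adjusted p = 0.069, by the same exact test). Requiring 50% of the peak, or the summit, inside the gene gave intron shares of 92.86% and 93.15%, and the latter a difference from regions at no gene of −0.1029 points. Merging overlapping intervals gave box and tRNA-like shares of 69.72% and 58.68%, and a difference from promoter regions of 12.45 points. The box share was 35.77% with GTTCGANNC alone, 36.86% within 50 bp and 74.25% within 200 bp, where the difference from promoter regions was 11.41 points. The outermost 25% at each end held 78.32% of regions. Pol III genes lay within 500 bp of 0% and within 2000 bp of 3.523%. Leaving out regions beside a stronger summit, added after the data were seen, gave box and tRNA-like shares of 73.14% and 61.48% and a difference from promoter regions of 14.96 points. Where a result moved, the cause was not tested. Promoter windows of 250 and 1000 bp, and widening only small RNA genes (the latter added later), moved no result past its interval or threshold. No paired analysis was possible because there was 1 group. Unknown depth leaves the detection limit for weak regions unknown.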
